A study of Mus musculus with 9 samples.

Results

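The baseline miRNA profile of the mouse liver was read from 123 mature miRNAs, 6.54% of the 1881 mouse miRNAs on the array, that the scanner software marked as detected on each of 3 chow-fed control arrays. The study measured liver miRNA on 1-colour Agilent arrays in chow-fed mice and in mice on a high fat diet with or without metformin, and only the 3 control arrays are described here. The control mice were wild-type male C57BL/6J animals, an inbred laboratory strain, put on chow at 3 weeks of age, fed it for 17 weeks and sampled at 20 weeks. Each array held Cy3-labelled RNA from mixed liver tissue of 4 mice (15 mg), so every SD below is over pools. The labels give no vehicle for the control mice. Per the file headers, controls 1 and 2 were on 1 slide and control 3 was on another.

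miRNAs are short RNAs cut from a hairpin precursor, which can yield a mature strand from its 5′ side (5p) or its 3′ side (3p). A mature miRNA finds its target mRNAs mainly through its seed, bases 2 to 8, so miRNAs with the same seed are grouped as a family. In the liver, miR-122 is known as the dominant miRNA of hepatocytes, where it acts on cholesterol and lipid metabolism. The liver also holds endothelial, stellate, bile duct and blood cells, each with miRNAs of its own. In a tissue pool, fewer cells of a type and less RNA per cell cannot be told apart.

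Sequences were taken from the RefSeq table of build GRCm38.p6, which held 109 of the 123 detected miRNAs by name, and are written 5′ to 3′ with the seed in capitals. First come miRNAs with numbers of 1000 or higher, of which 3 were among the 4 brightest, and then classical liver miRNAs.
miR-6366: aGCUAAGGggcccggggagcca
miR-3963: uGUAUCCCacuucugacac
miR-5100: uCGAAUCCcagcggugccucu
miR-5126: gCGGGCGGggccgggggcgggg
miR-8110: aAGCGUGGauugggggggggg
miR-21a-5p: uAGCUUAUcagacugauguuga
miR-192-5p: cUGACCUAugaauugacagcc
miR-22-3p: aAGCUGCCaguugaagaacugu
miR-126a-3p: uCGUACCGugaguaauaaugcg
miR-194-5p: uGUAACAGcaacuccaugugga
The let-7 and miR-29 families are shown because several members of each were detected and their members differ by few bases outside the shared seed.
let-7b-5p: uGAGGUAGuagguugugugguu
let-7c-5p: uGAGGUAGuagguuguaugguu
let-7a-5p: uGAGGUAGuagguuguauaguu
let-7f-5p: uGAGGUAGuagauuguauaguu
let-7g-5p: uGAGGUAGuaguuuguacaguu
let-7d-5p: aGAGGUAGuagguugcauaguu
let-7i-5p: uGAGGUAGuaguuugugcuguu
let-7e-5p: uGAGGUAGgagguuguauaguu
miR-29a-3p: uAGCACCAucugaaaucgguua
miR-29c-3p: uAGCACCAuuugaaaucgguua
miR-29b-3p: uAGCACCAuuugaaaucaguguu

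The value of a miRNA is its signal, the background-subtracted intensity of its brightest probe, taken as the median over spots outside edge columns where bright probes had gone dark. A share is that signal as a percent of the summed signal of the 123 detected miRNAs on the same array. Probes differ in how well they bind and how well their target is labelled, so ranks and shares order signals and not numbers of molecules. For the 82 miRNAs whose second probe also exceeded the lowest detected signal, the brightest probe was a median 2.23 times the second, and at most 22.8 times. Order by the brightest and order by the second probe had a Spearman correlation of 0.87 across these 82 miRNAs, as a description. In the rest of the 123, the second probe did not exceed the lowest detected signal on every array. They include miR-3968, whose brightest probe gave 411, 491 and 473 units, and are not covered by these values.

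The software marked 136, 140 and 156 miRNAs as detected on controls 1, 2 and 3. Of all miRNAs on the array, 123 were detected on 3 arrays, 22 on 2, 19 on 1 and 1717 on none. The edge columns left out held 43.8%, 43.5% and 41.1% of the spots, and no spot was saturated. A value rested on 2 to 13 spots, with a median of 8. The 123 miRNAs held 98.8%, 98.5% and 98.6% of the positive signal of all mouse miRNAs on the arrays. Spearman correlations between arrays ran from 0.97 to 0.99 over the 123 miRNAs, which share their probes and the detection rule. The number of arrays limits the precision of every value.

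A handful of miRNAs held nearly all of the signal. miR-6366 alone gave 81695, 89814 and 99232 intensity units on controls 1, 2 and 3, which was 53.0%, 53.4% and 54.2% of the signal, a mean of 53.6% ± 0.59 (SD, n = 3). It was the brightest on every array and by itself exceeded 50% of the signal. The 3 brightest miRNAs held 78.6% ± 0.24 (SD, n = 3) and the 10 brightest 90.1% ± 0.28 (SD, n = 3). The dimmest 61 together held 1.06% ± 0.014 (SD, n = 3).

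miR-122-5p, the hepatocyte miRNA, was the brightest of the classical miRNAs. Its signal was 18152, 22196 and 23540 on the 3 arrays, a share of 12.6% ± 0.74 (SD, n = 3). miR-3963 gave 21232, 20655 and 20815 units, a share of 12.5% ± 1.2 (SD, n = 3). miR-3963 ranked above miR-122-5p on control 1 and below it on controls 2 and 3, so their order was within the spread between pools.

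The fourth place went to miR-5100 with 8771, 8384 and 10318 units, a share of 5.44% ± 0.39 (SD, n = 3). This value comes from a probe with only 2 usable spots on control 1, and with a minimum of 3 spots per probe the share is 0.481%, read from its other probe. Within the 10 brightest, ranks 1, 4, 5, 6 and 9 belonged to the same miRNA on all 3 arrays, namely miR-6366, miR-5100, miR-21a-5p, miR-192-5p and let-7c-5p. Ranks 10 to 14 were shared by miR-29a-3p, let-7a-5p, miR-5126, let-7f-5p and let-7g-5p on every array, in an order that changed between arrays. The plot of signal by rank shows the steep start and the long tail of this profile.

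**Figure D1:**
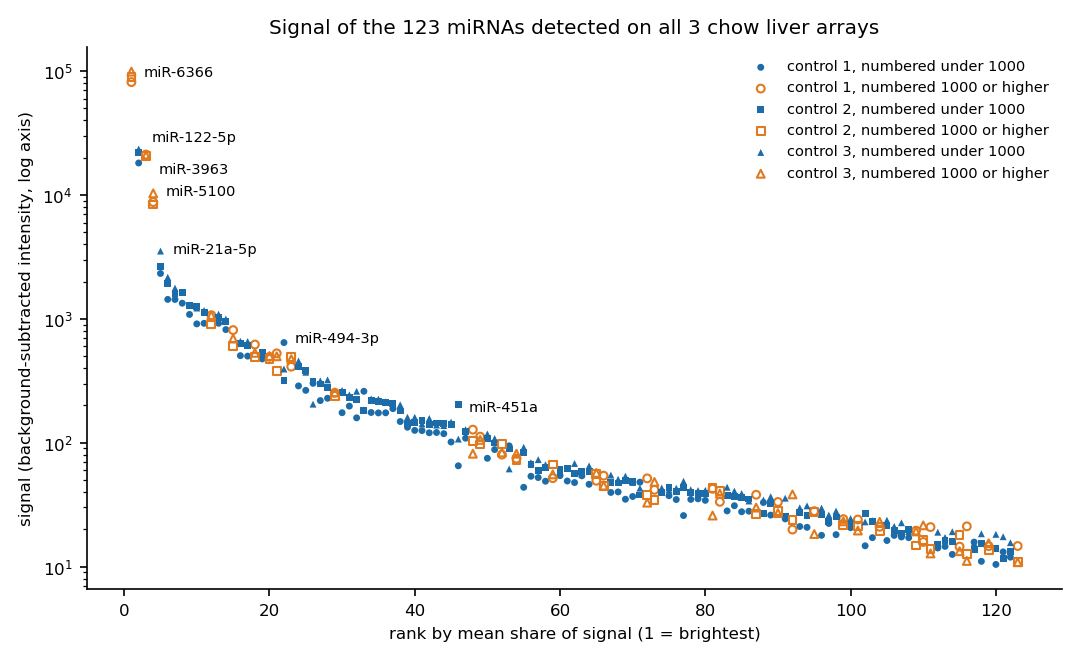
Signal of each of the 123 detected miRNAs on a log axis, ordered by mean share, with 1 point per control array; filled blue points are miRNAs numbered under 1000 and open orange points those numbered 1000 or higher. miR-6366 lies between 81695 and 99232 on the 3 arrays, above every other miRNA, and 3 of the 4 highest positions are open orange points.

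Mature miRNAs are numbered in the order in which they were registered, so high numbers are late additions to the catalogue. The 35 detected miRNAs numbered 1000 or higher were 3.30% of the 1062 such miRNAs on the array, and the 88 numbered under 1000 were 10.74% of 819. The 35 late ones nevertheless held 75.9%, 73.4% and 73.9% of the signal, a mean of 74.4% ± 1.3 (SD, n = 3). Without miR-6366 and miR-3963 the remaining late ones held 8.37% ± 0.70 (SD, n = 3), of which most was miR-5100.

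The late miRNAs were richer in G and C than the others. Median GC content was 65.1% over the 30 late ones with a RefSeq sequence, 45.5% over the 79 others, and 52.2% over the 1608 array miRNAs with a sequence. The array as a whole had a smaller gap in the same direction, with 55.0% over late-numbered miRNAs and 47.6% over those under 1000. A run of GGGG stood in 15 of those 30 and in 4 of the 79 (5.06%), against 182 of 1608 on the array (11.3%). On the array it stood in 14.5% of the late-numbered miRNAs and 7.03% of those under 1000. A first base of U, common among miRNAs, was found in 9 of the 30 late ones and in 48 of the 79 others (60.8%), against 40.2% of all array miRNAs with a sequence, 44.2% of the late-numbered and 34.8% of those under 1000. The run was chosen for this description after the sequences had been seen. A few of the late sequences follow with the first such run in capitals, to show where in the molecule it lies.
miR-6366: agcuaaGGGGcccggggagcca
miR-5126: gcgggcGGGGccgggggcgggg
miR-8110: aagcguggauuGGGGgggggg
miR-1224-5p: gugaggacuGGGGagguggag
miR-3473g: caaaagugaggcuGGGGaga
miR-8117: gcucguguggaacagaaGGGG
Among the late miRNAs, signal and GC content were almost unrelated (Spearman 0.07, n = 30), and among the others brighter ones had somewhat lower GC content (Spearman -0.35, n = 79). Whether base composition bears on the brightness of these probes was not tested.

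Shares among the 88 miRNAs numbered under 1000 describe the profile without those numbered 1000 or higher. On that base miR-122-5p held 48.9%, 49.6% and 49.3% of the signal, a mean of 49.3% ± 0.35 (SD, n = 3). miR-21a-5p, found in most tissues and known to increase in injury and growth, followed at 6.54% ± 0.75 (SD, n = 3). miR-192-5p, a miRNA of hepatocytes and gut epithelium, held 4.25% ± 0.34 (SD, n = 3) and miR-22-3p, a broadly expressed miRNA, 3.71% ± 0.15 (SD, n = 3). The 10 brightest of the 88 held 79.8% ± 0.68 (SD, n = 3), and 5 of those 10 were let-7 miRNAs.

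**Figure D2:**
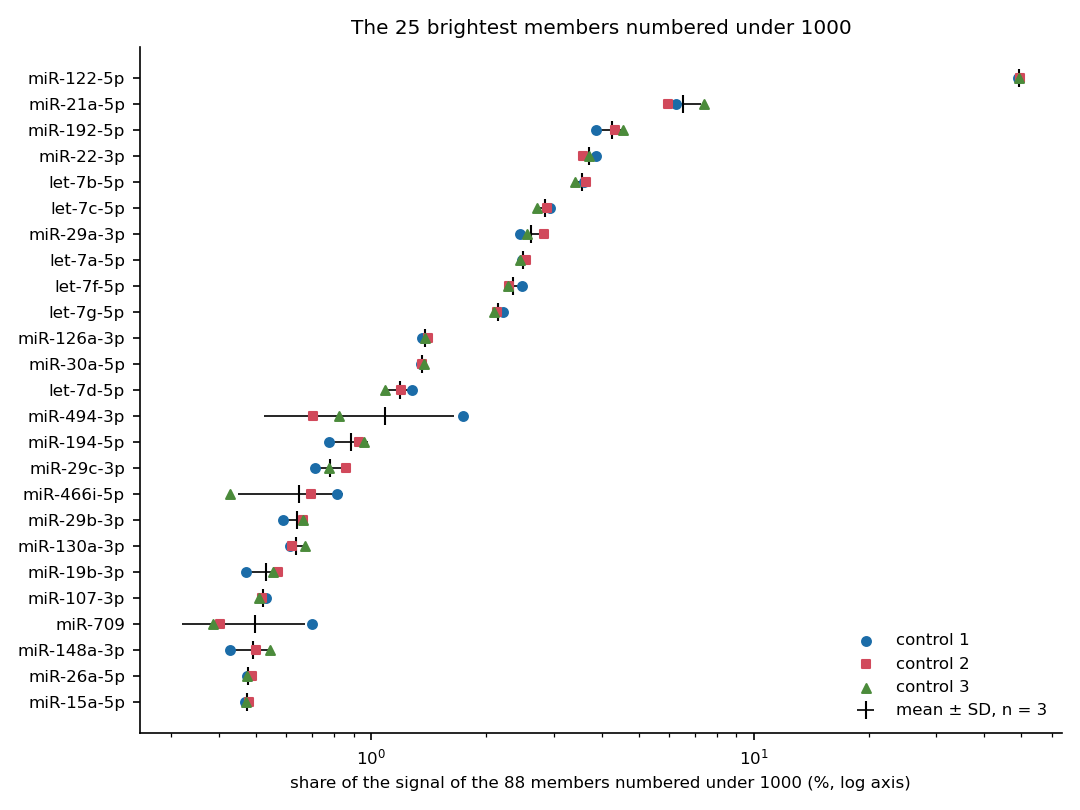
Share of the signal of the 88 detected miRNAs numbered under 1000 (percent, log axis) for the 25 brightest of them, with 1 point per control array and the mean ± SD over 3 arrays. miR-122-5p sits at 49.3%, far to the right of miR-21a-5p at 6.54%, and the points of miR-494-3p, miR-466i-5p and miR-709 are spread wider than those of their neighbours.

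Hepatocyte markers were detected in part, and miR-122-5p alone held 11.8%, 13.2% and 12.9% of the signal on controls 1, 2 and 3. Of 8 listed hepatocyte miRNAs, 4 were detected on all 3 arrays, and together they held 13.01%, 14.73% and 14.43% of the signal. Beside miR-122-5p these were miR-192-5p with 1436, 1938 and 2168 units, miR-194-5p with 287, 415 and 457, and miR-148a-3p, a regulator of liver lipid handling, with 159, 223 and 260. All 4 signals were lowest on control 1, as were those of 87 of all 123 miRNAs (70.7%). The opposite arm miR-122-3p was detected on controls 2 and 3 only, and miR-101b-3p, miR-802-5p and miR-802-3p on none. miR-802-5p, known for its part in liver glucose metabolism, gave 0.357, 6.87 and 4.94 units, below the lowest detected miRNA on each array (10.4, 10.9 and 10.8).

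Little of the signal belonged to markers of other cell types of the organ. miR-126a-3p, which is made in endothelial cells from an intron of Egfl7, was the brightest of them with 505, 630 and 659 units, a share of 0.354% ± 0.024 (SD, n = 3). Of 7 leukocyte miRNAs, 3 were detected and held 0.0594% ± 0.0038 (SD, n = 3) together. These were miR-223-3p of myeloid cells at 39.6, 47.4 and 54.7 units, miR-342-3p at 34.8, 39.9 and 41.7, and miR-146a-5p, induced by inflammatory signalling, at 10.4, 14.1 and 18.2. By spots outside the dark edge columns, miR-146a-5p passed on 2 arrays only. miR-142a-3p, made in blood cells of all lineages, was detected on controls 2 and 3, while the lymphocyte miRNA miR-150-5p and miR-155-5p of activated leukocytes were detected on none.

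Among 8 stellate and mesenchymal miRNAs only miR-199a-3p was detected on all arrays, at 37.3, 43.2 and 41.5 units. Its opposite arm miR-199a-5p and miR-199b-5p, which has the seed of miR-199a-5p, each passed on 2 arrays. The smooth muscle miRNAs miR-143-3p and miR-145a-5p passed on none. Of 8 miRNAs of bile duct and other epithelium, none was detected on all 3 arrays and miR-200b-3p on control 3 alone. No listed miRNA of brain (8), pancreas (4), early embryo (10), the imprinted Dlk1-Dio3 locus (7) or the H19 and Igf2 loci (4) was detected on any array, while miR-494-3p of the Dlk1-Dio3 locus, which is not on the list, was. Across all lists, 59 miRNAs were detected on no array, with signals from -2.43 to 7.64. Over the whole array, 1717 of 1881 miRNAs were detected on none and 6.54% on all 3 arrays. Lists with few or no detected miRNAs are therefore near what the array shows as a whole.

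Of the erythroid miRNAs on the array only miR-451a was detected, and its signal differed between the pools. miR-451a, which red cells make by a route that skips Dicer, gave 65.1, 202.4 and 106.95 units, a share of 0.0423%, 0.120% and 0.0584%. Control 2 was high and control 1 low, a 2.85-fold span that was the widest of the 123 miRNAs. The other erythroid miRNAs on the array, miR-144-3p, miR-144-5p and miR-486a-5p, were at 0.467 to 5.88 units and detected on none. Blood content of the pools was not tested.

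Striated muscle miRNAs appeared on control 3 alone. miR-1a-3p gave 0.567, -0.352 and 17.5 units, miR-133a-3p 3.49, 2.02 and 16.5, and miR-133b-3p 6.87, 1.04 and 29.4. Each was marked as detected on control 3 and on neither other array. The remaining 4 of the 7 listed muscle miRNAs, miR-206-3p, miR-208a-3p, miR-208b-3p and miR-499-5p, were detected on no array, with 5.49 units for miR-206-3p on control 3 as the highest value. Of the 19 miRNAs detected on 1 array, 12 were detected on control 3, 5 on control 1 and 2 on control 2. What brought these miRNAs to control 3 was not tested.

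**Figure D3:**
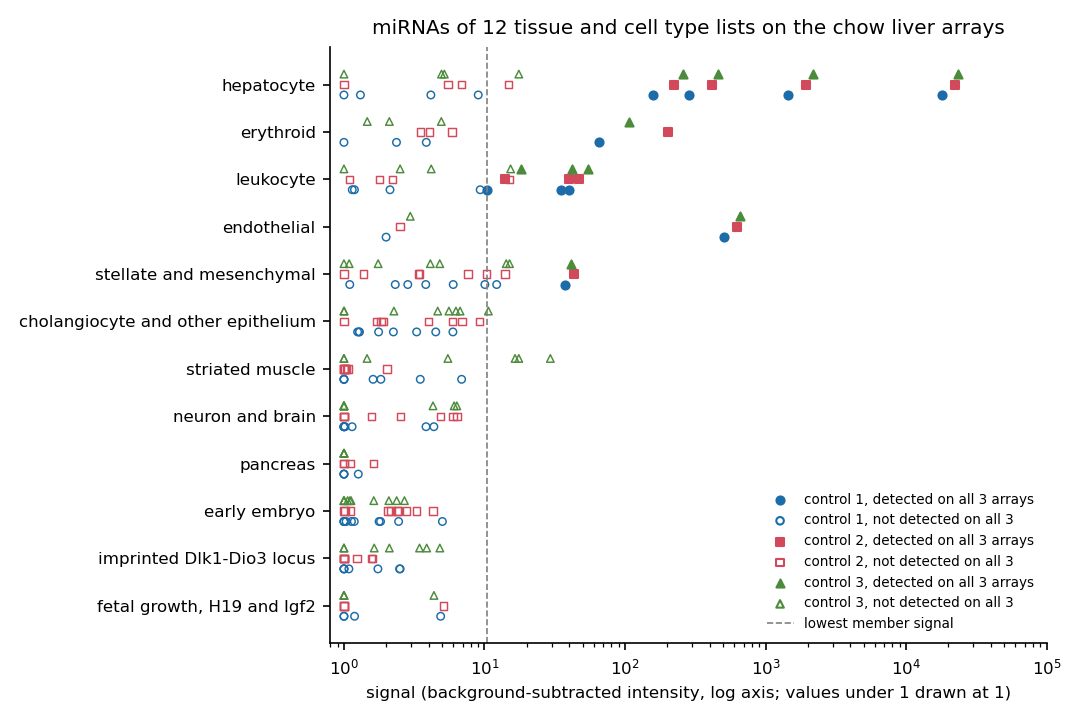
Signal (log axis, values under 1 drawn at 1) of every miRNA of 12 tissue and cell type lists on each control array; filled points were detected on all 3 arrays, open points were not, and the dashed line is the lowest detected signal. Filled hepatocyte points reach 23540 units, and 3 open muscle points of control 3 lie right of the line at 16.5 to 29.4.

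The let-7 family was the brightest family with more than 1 detected miRNA. let-7 miRNAs rise as tissues mature and repress growth genes. Of 11 array miRNAs with the seed GAGGUAG, 8 were detected, and together they held 3.76%, 4.07% and 3.82% of the signal, a mean of 3.88% ± 0.17 (SD, n = 3). let-7b-5p led with 1338, 1632 and 1633 units and let-7e-5p closed with 52.3, 59.8 and 73.0, a 24.97-fold difference in mean share. let-7a-5p and let-7e-5p differ by 1 of 22 bases and by 17.5-fold in share, while let-7a-5p and let-7f-5p, also 1 base apart, differ by 1.06-fold. miR-98-5p, which has the same seed, was detected on controls 1 and 3 only, and let-7k and miR-1961 on none. Probes of such close sequences may share targets, and this was not tested.

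The 3 miR-29 miRNAs, which repress collagens and other matrix genes, were all detected and held 1.04% ± 0.13 (SD, n = 3). miR-29a-3p gave 911, 1265 and 1223 units, miR-29c-3p 265, 384 and 371, and miR-29b-3p 219, 298 and 316. Like most of the 123, all were lowest on control 1. miR-29b-3p also had the widest gap between its probes, 22.8-fold, among the 82 miRNAs whose second probe exceeded the lowest detected signal.

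In the miR-30 family 5 of 6 miRNAs were detected with 0.499% ± 0.033 (SD, n = 3), led by miR-30a-5p at 500.1, 609 and 656 units. miR-30c-5p, miR-30e-5p, miR-30b-5p and miR-30d-5p lay between 17.9 and 142 units. The miR-15/16 family, which restrains the cell cycle, had 6 of 10 detected and 0.359% ± 0.027 (SD, n = 3), led by miR-15a-5p (174.0, 215.2 and 224.7 units) and miR-16-5p (148, 180 and 202). Pairs with a single seed were complete for miR-103 and miR-107 (0.218% ± 0.0075, SD, n = 3), miR-26 (0.199% ± 0.017), miR-19 (0.145% ± 0.022), miR-23 (0.141% ± 0.0051) and miR-27 (0.0686% ± 0.0060). miR-103-3p and miR-107-3p, which lie in introns of pantothenate kinase genes, differ by 1 base.

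Some families were split between detected and undetected relatives. miR-192-5p was bright and its seed partner miR-215-5p was at -0.141 to 0.511 units. miR-148a-3p and miR-152-3p (27.7, 36.3 and 38.8 units) were detected and miR-148b-3p (5.05, 7.80 and 8.04) was not. Within the miR-17 family, miR-20a-5p at 121, 144 and 139 units, miR-106b-5p, miR-20b-5p and miR-93-5p were detected, while miR-17-5p gave -1.25, -0.0817 and 1.35. miR-10a-5p was detected at 40.0, 47.2 and 50.7 units and miR-10b-5p, at 1.22 to 1.81, was not. miR-99a-5p and miR-100-5p were detected and miR-99b-5p was not.

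Of 74 conserved families that were listed, 36 had at least 1 detected miRNA and 38 had none. Among the 38, 10 had a miRNA detected on 1 or 2 arrays, while in 28 families no miRNA passed on any array, and the 44 miRNAs of these had signals from -1.51 to 10.6. miR-191-5p, a miRNA of many tissues, gave -1.51, -0.977 and 1.61 units although miR-425-5p from the same locus was detected at 14.5, 16.2 and 17.2. miR-33-5p, which lies in an intron of the sterol regulator Srebf2, gave 2.62, 3.84 and 3.46 units. All 4 miR-181 miRNAs, miR-320-3p, miR-155-5p, miR-375-3p, miR-124-3p and miR-9-5p were among the undetected. These 28 families were not detected on these arrays, which does not show that they are absent from liver.

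In most arm pairs only 1 arm was detected on all 3 arrays. Of 94 arm pairs with both arms on the array and at least 1 detected, 2 had both arms detected on all 3 arrays, 57 the 5p arm only and 35 the 3p arm only. Over the whole array, 59 of 775 5p arms (7.61%) and 37 of 785 3p arms (4.71%) were detected. Some partner arms passed on fewer arrays, among them miR-122-3p and miR-140-5p on 2 and miR-22-5p on 1, so the count depends on the detection rule. For the lone arms a bound was set on each array, the detected arm over the higher of its partner's own signal and the lowest detected signal there, and averaged over the arrays on the log2 scale. The mean bound exceeded 10-fold for 34 pairs and was under 2-fold for 14, with a median of 5.14-fold.

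Both arms of miR-21a were detected, 5p at 2327, 2668 and 3529 units and 3p at 14.7, 26.7 and 22.9, a mean log2 ratio of 7.07 ± 0.37 (SD, n = 3), or 134.6-fold. miR-30a gave a log2 ratio of 4.02 ± 0.02 (SD, n = 3), or 16.3-fold, with its 3p arm at 31.0, 36.8 and 40.7 units. The 5p arm was the brighter in both hairpins on every array, but the size depended on the processing. From mean shares, the software's total signal gave 229-fold for miR-21a and 9.42-fold for miR-30a. Normexp background correction gave 33.5-fold and 6.49-fold. It was run with an offset that adds 50 units to every spot value, more than the signal of either 3p arm. The 4 arms are written with the seed in capitals, since each arm of a hairpin has a seed of its own.
miR-21a-5p: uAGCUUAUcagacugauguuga
miR-21a-3p: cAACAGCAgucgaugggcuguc
miR-30a-5p: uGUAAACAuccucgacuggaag
miR-30a-3p: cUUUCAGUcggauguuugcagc

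Among lone 5p arms, the mean bound was 1520-fold for miR-122-5p, with 1341-fold on its lowest array, and miR-122-3p was itself detected on 2 arrays. It was 170.1-fold for miR-192-5p (lowest array 138-fold) and 143-fold for let-7b-5p (lowest array 129-fold). Among lone 3p arms, it was 149-fold for miR-22-3p (lowest array 138-fold), 105-fold for miR-29a-3p (lowest array 87.7-fold) and 55.5-fold for miR-126a-3p (lowest array 48.6-fold). For miR-146a the bound was at 0 on the log2 scale on 1 array and for miR-6908 on 2, because the detected arm was itself the lowest detected signal there, and no direction is given. Among the miRNAs numbered under 1000, 46 of 364 5p arms (12.6%) and 36 of 374 3p arms (9.63%) were detected. By signal the 5p arms held 83.2% ± 0.48 (SD, n = 3) of that class and the 3p arms 15.8% ± 0.35 (SD, n = 3). Without miR-122-5p, the other 45 5p arms held 33.9% ± 0.33 (SD, n = 3) of that class.

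**Figure D4:**
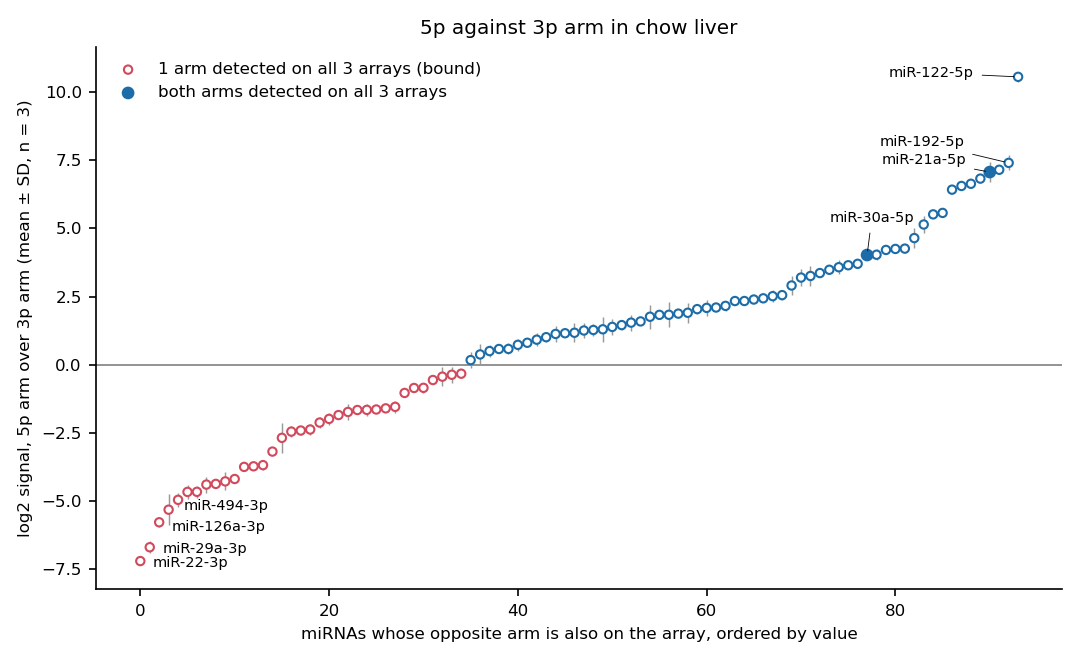
Log2 ratio of 5p to 3p signal (mean ± SD over 3 arrays) for 94 arm pairs in order of value; filled points have both arms detected, and open points are bounds where 1 arm was detected (blue 5p, red 3p). The filled points are miR-21a at 7.07 and miR-30a at 4.02, and the bounds run from -7.22 for miR-22-3p to 10.57 for miR-122-5p.

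Most miRNAs differed little between the pools. The highest array exceeded the lowest by a median of 1.20-fold in share, 105 of 123 miRNAs stayed under 1.5-fold, and 18 reached it. Of these 18, 10 were numbered 1000 or higher. The median SD of the log2 share was 0.23 for the late miRNAs and 0.11 for the others, with median signals of 41.3 and 58.7 units.

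After miR-451a, the widest spans were those of miR-3470a (21.1, 12.5 and 11.1 units, 2.26-fold), miR-494-3p (643, 316 and 394, 2.22-fold), miR-3082-5p (42.4, 43.3 and 25.8, 1.96-fold) and miR-5128 (20.8, 13.9 and 12.7, 1.94-fold). miR-494-3p, miR-3470a and miR-5128 were highest on control 1. miR-193a-3p, at 43.6, 82.7 and 91.8 units, was low on control 1. miR-6937-5p and miR-3082-5p moved farthest in rank, by 28 places, followed by miR-3470a and miR-1187 with 26, and miR-30b-5p and miR-5128 with 22.

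Repeats of GU marked a set that was low on control 3. The 3 detected miRNAs whose RefSeq sequence holds GUGUGUG, capitalised below at its first place, all had their lowest share on control 3 and their highest on control 1.
miR-574-5p: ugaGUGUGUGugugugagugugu
miR-3082-5p: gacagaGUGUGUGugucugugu
miR-1187: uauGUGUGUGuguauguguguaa
On control 3 their log2 share was lower than the mean of the other arrays by a median of -0.78, with a range from -0.92 to -0.76. The same difference was -0.14 in the median over the 19 miRNAs with GGGG and 0.03 over the 87 with neither run, of which 9 and 20 were lowest on control 3. The run is held by 10 of the 1608 array miRNAs with a sequence, or 0.622%, and was searched for after these values had been seen. miR-466i-5p was likewise lowest on control 3, with 302, 312 and 205 units. Control 3 was on another slide than controls 1 and 2, and slide and pool cannot be told apart here.

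**Figure D5:**
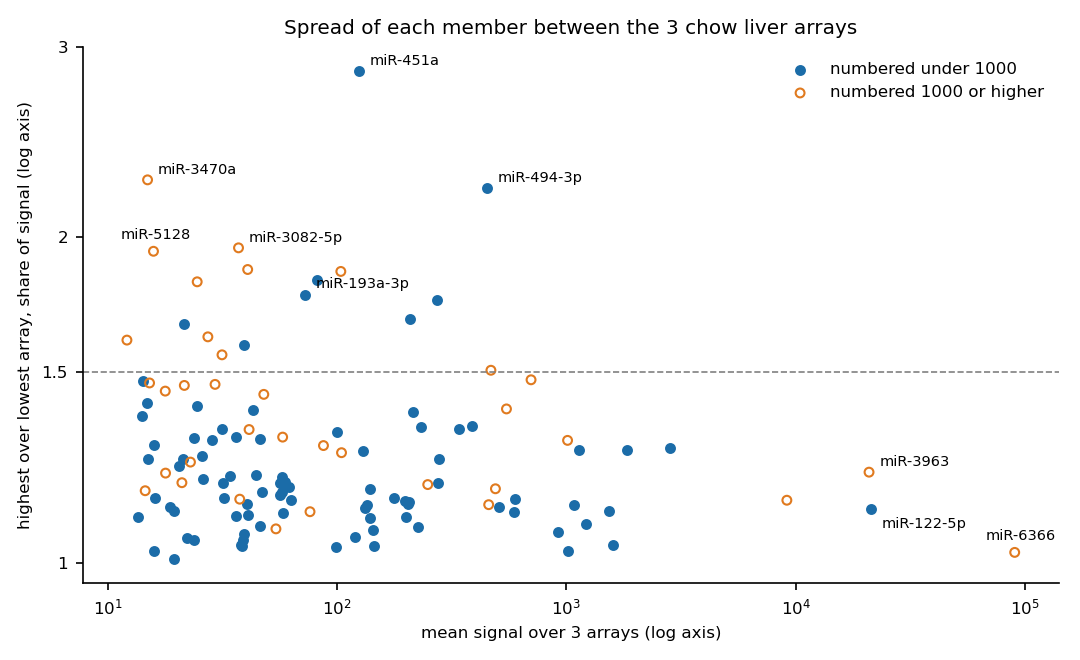
Ratio of the highest to the lowest of the 3 arrays in share of signal (log axis) against mean signal (log axis) for each of the 123 miRNAs; the dashed line marks 1.5-fold. miR-451a is highest at 2.85-fold, and 105 miRNAs lie below the line.

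The range of detected miRNAs ended close to the background. The dimmest of the 123 were miR-6908-5p (14.6, 10.9 and 10.8 units), miR-350-3p (11.9, 13.3 and 15.6), miR-149-3p (13.1, 11.7 and 17.4), miR-146a-5p and miR-1949. Just outside, the brightest miRNAs detected on 2 arrays were miR-7082-5p (18.6, 15.0 and 17.6), miR-652-3p (10.5, 18.1 and 20.1), miR-331-3p, miR-3077-5p and miR-31-5p, with mean signals of 15.96 to 17.04. Inner and outer values overlap, so membership at this end rests on the software's mark and not on signal alone.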

How the data were processed

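Per the file headers, the intensity of each spot was extracted and background-subtracted with Agilent Feature Extraction 11.5.1.1, and arrays were not scaled to each other. The submitters' processing notes name version 10.7, a difference that was not resolved. Flags of detection, background and uniformity are the software's. The authors' deposited table of log2 values equalled log2 of the total gene signal in the scanner files plus a constant for each array (-0.80, -1.06 and -1.51), with 0 of 123 miRNAs departing by over 0.001. Centring and the origin of the constants remain unknown.

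Arrays were grouped by the labels, and no groups were compared and no test was run. To find the dark edges, probes whose 80th spot percentile was over 100 units were used, and their spots below 50% of that percentile counted as dark. Blocks of 4 columns were removed from either edge until a pair of successive blocks had under 10% dark spots. This step was checked only on simulated arrays with fully dark, sharp-edged strips of the widths found on controls 1 and 2, or with no strip. Partly dark or graded edges were not simulated. Probe values are medians of the spots that were left and not marked as non-uniform. A minimum of 2 spots was required, which left out 63 of 4415 probes. That minimum replaced 3 after it was seen that 3 removed the brightest probe of miR-5100. The probe with the highest mean over the 3 arrays stood for its miRNA. Values are means ± SD over 3 pools. Python 3.11.15, pandas 2.3.3, numpy 2.4.6, scipy 1.17.1, R 4.3.3 and limma 3.58.1 (for normexp) were used.

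Named are the 30 miRNAs with the highest mean share, listed marker miRNAs, miRNAs of the 10 brightest seed families, hairpins with both arms detected, the 5 widest in rank, the 5 dimmest, and the 5 brightest detected on 2 arrays. Other names, and the runs of letters searched for, were chosen after their values were seen. The miRNAs and lists were chosen with earlier results of these data known. Families were assigned by seed, or by name for 19 miRNAs without a sequence in the table, of which 6 were detected. The file headers name another mouse build than the RefSeq table, so no coordinates are given.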

Additional observations from a re-analysis of the deposited data

How the results depend on the processing

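The share of miR-6366 (53.6%) was 53.2% to 53.7% with 1 control left out, 54.4% with the mean of all spots, 56.4% with at least 3 spots per probe, 57.9% with probes summed, 56.5% with the software's total signal and with the deposited table, 51.3% with normexp and 52.8% with all miRNAs in the denominator. The 10 brightest (90.1%) held 89.9% to 90.1% with 1 control left out, 91.3% with all spots, 89.8% with 3 spots, 90.5% with probes summed, 86.5% with normexp, 88.9% over all miRNAs and 79.8% over those numbered under 1000. Late-numbered miRNAs (74.4%) held 73.6% to 74.9% with 1 control left out, 73.1% with 3 spots, 76.1% with probes summed and 72.5% with normexp. The let-7 family (3.88%) held 3.79% to 3.94% with 1 control left out, 4.08% with 3 spots, 3.20% with probes summed and 15.2% among those numbered under 1000, where 2 miRNAs and not 1 were needed to pass 50%. The number detected (123) was 124 to 137 with 1 control left out, 124 by spots outside the strips and 145 on at least 2 arrays. Both hairpins with 2 detected arms kept the brighter 5p arm under every alternative run. The cause of these moves was not tested. Among the 58 named shares, 22 moved by over 1.5 times with normexp, all of miRNAs with mean signals of 12.1 to 99.9 units. Normexp was run with an offset, which adds 50 units to every spot value and so weighs most on dim miRNAs. With all spots miR-30c-5p moved to 0.0521% and miR-30d-5p to 0.00910%. With the software's total signal miR-15a-5p moved to 0.219%, miR-21a-3p to 0.00565%, miR-29b-3p to 0.105% and miR-6937-5p to 0.0147%, and with 3 spots miR-5100 to 0.481%. Normexp on spot medians was chosen after seeing the data, since the planned spot means were not in the columns used here. The minimum of 2 spots was also chosen after seeing the data, in place of the original 3, which is given here as the alternative. The planned brightest seed family would be miR-6366 alone, so let-7 was taken in its place. No paired analysis was possible because 1 group was described and no test was run.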

Other observations

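Hairpins that neighbour each other in the genome are often cut from 1 transcript. In the RefSeq order, 29 of 70 groups of hairpins within 10000 bases held a hairpin with a detected mature miRNA. In 16 of the 29 every hairpin had one. A mature miRNA made from several hairpins, such as let-7c-5p or miR-24-3p, was counted for each. Which of its hairpins gave the signal is not known. miR-192-5p and miR-194-5p, which have neighbouring hairpins, differed 4.79-fold in share, and miR-194-5p has another hairpin beside that of miR-215. The miR-25, miR-93 and miR-106b hairpins all had a detected miRNA, within 1.52-fold. In the miR-17 to miR-92a group, 4 of 6 hairpins had a detected miRNA, and miR-17-5p and miR-18a-5p were not detected. The 4 ran from miR-19b-3p at 0.136% to miR-19a-3p at 0.00876%, a 15.6-fold span. Of these, miR-19b-3p and miR-92a-3p also have hairpins in the group of miR-106a. In the large imprinted group that holds miR-379 and miR-410, 1 of 36 hairpins had a detected miRNA, namely miR-494-3p at 0.274% ± 0.13 (SD, n = 3). Over the whole array 6.54% of miRNAs were detected, a share counted by mature miRNA and not by hairpin or group. Levels of neighbours come from different probes, and their ratios are ratios of signal.

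The run UCCCA was noticed after values were seen, in miR-3963 and miR-5100. It stands in 4 of the 109 detected miRNAs with a sequence (3.67%) and in 58 of the 1608 on the array (3.61%), so its share among detected miRNAs was near the background. The run is in capitals.
miR-3963: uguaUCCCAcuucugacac
miR-5100: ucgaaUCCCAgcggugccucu
miR-3968: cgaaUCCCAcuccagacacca
miR-193a-3p: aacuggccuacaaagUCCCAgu

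By the spots outside the edge strips, 124 miRNAs were detected on all 3 arrays, and 119 of these were among the 123. The 5 others were miR-7082-5p, miR-331-3p, miR-3077-5p, miR-31-5p and miR-30c-2-3p, with mean signals from 12.9 to 17.0 units.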
